A study of Mus musculus with 11 samples.

Results

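NF-kB is a family of transcription factors that act as dimers, and 10 genes of its core were followed here in mouse microglia, the macrophages that live in brain tissue, kept in culture. They include Tnfaip3, which encodes the ubiquitin-editing enzyme A20. The others are the subunit genes Nfkb1, Nfkb2, Rel, Rela and Relb, and the genes Nfkbia, Nfkbib, Nfkbie and Nfkbiz of the IkB protein family. All 10 were chosen by name, and every probe that the array annotation assigns to them was taken. This gave 11 probes for 9 of the 10 genes, with 2 probes each for Nfkbia and Nfkbie. All 11 probes passed the detection filter, so 9 genes were tested among 8952 genes in all. Nfkb1 was not analysed here, as the annotation names no probe for it.

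In resting cells NF-kB dimers are held in the cytoplasm by IkB proteins. Signals from toll-like receptors or TNF receptors activate the IkB kinase (IKK) complex, which marks IkB proteins for degradation and frees the dimers to enter the nucleus. Among the genes they then switch on are several of their own inhibitors and A20, so the pathway is known for its negative feedback, in macrophages as in other cells. Protein levels and nuclear entry were not measured by these arrays, which report transcript levels.

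The cells came from newborn mice of the strain C57BL/6J, with no genetic change named, and their RNA was read on 11 single-colour Illumina arrays. A 48 h exposure was used both for IL-4 (3 arrays, 100 U/ml) and for TGFb (3 arrays, 20 ng/ml). The bacterial product LPS (100 ng/ml) was given together with IFNg (20 ng/ml) for 16 h, with 2 arrays, numbered 1 and 3. Untreated cells filled 3 arrays, and the labels give no time for them, so stimulus and time in culture cannot be told apart. All untreated arrays and the stimulated arrays numbered 3 were on slide 2, and the stimulated arrays numbered 1 or 2 were on slide 1, so each stimulus was also compared within slide 2. It is not stated that replicates came from different animals or cultures, so the p-values cover only the scatter among these samples, which may be technical.

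The median bead signal per array ran from 120.1 to 127.3, and 12427 to 14200 probes were detected. Across genes, the correlation between arrays of 1 group was 0.945 to 0.987 for IL-4 and 0.968 to 0.983 elsewhere. IL-4 replicate 1 stood apart, with a mean log2 level of 8.19 over 4 fibroblast and mural cell markers against 4.76 to 6.04 on the other 10 arrays, so the IL-4 comparisons of the members are also given without it. Of 11 microglia and macrophage markers 10 were tested. The mean log2 level of those 10 was 10.3 to 11.2 in untreated cells and 9.00 to 9.35 with LPS/IFNg. With LPS/IFNg 2 were called higher, Aif1 and Ptprc, and 5 lower: Csf1r, Cx3cr1, P2ry12, Tmem119 and Trem2. Cx3cr1 averaged 12.6 in untreated cells and 7.06 with LPS/IFNg, and Trem2 averaged 13.5 and 9.43. C1qb, a complement component, was not called and averaged 14.6 in both groups. The mean log2 level of 5 tested astrocyte markers was 4.56 to 5.19 in untreated cells, 5.29 to 5.30 with LPS/IFNg and 6.56 on IL-4 replicate 1, and none was called. Of 3 tested oligodendrocyte markers 2 were called higher and 1 lower with LPS/IFNg, S100a8, the 1 tested leukocyte marker, was called higher, and none of 4 fibroblast and mural, 1 neuronal and 1 endothelial marker was called. The part of other cell types in the results below was not tested.

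The sequences before 5 of the genes are shown because the letters of the kB consensus, the 10-base element that NF-kB dimers recognise, are present in some and not in others. Each is the 250 bases before a transcript start in the RefSeq promoter table of GRCm38.p6, written 5′ to 3′ on the gene's own strand, with consensus matches on either strand in capitals. Nfkbia (chr12:55492648-55492897, minus strand) and Tnfaip3 (chr10:19015411-19015660, minus strand) encode inhibitors, and Nfkb2 (chr19:46304487-46304736, plus strand) encodes a subunit. Nfkbib (chr7:28766645-28766894, minus strand) and Rela (chr19:5637291-5637540, plus strand) hold no match.
Nfkbia: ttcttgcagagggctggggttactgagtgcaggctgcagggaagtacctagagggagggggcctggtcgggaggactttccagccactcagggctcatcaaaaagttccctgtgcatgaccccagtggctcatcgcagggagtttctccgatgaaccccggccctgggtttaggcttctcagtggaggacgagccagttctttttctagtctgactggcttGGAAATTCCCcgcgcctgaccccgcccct
Tnfaip3: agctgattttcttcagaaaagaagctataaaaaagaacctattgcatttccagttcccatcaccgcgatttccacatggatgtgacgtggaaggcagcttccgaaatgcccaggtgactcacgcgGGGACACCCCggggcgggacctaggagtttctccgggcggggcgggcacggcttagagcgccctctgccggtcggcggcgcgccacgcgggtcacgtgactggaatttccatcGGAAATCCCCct
Nfkb2: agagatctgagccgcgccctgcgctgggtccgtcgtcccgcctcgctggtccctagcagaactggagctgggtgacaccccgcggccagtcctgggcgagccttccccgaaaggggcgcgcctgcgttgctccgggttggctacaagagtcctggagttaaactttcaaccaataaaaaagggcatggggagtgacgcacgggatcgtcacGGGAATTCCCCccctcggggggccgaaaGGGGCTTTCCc
Nfkbib: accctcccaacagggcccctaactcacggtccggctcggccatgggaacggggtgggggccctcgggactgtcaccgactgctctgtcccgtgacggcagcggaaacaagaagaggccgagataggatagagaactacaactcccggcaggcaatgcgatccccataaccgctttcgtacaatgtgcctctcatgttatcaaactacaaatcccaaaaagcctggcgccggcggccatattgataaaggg
Rela: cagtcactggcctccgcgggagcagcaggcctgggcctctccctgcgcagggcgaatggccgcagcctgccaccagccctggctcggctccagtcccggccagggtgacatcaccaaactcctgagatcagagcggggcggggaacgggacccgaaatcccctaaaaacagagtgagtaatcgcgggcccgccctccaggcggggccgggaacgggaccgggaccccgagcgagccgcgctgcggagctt

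The Nfkbia match GGAAATTCCC lay 29 to 20 bases before the start. Tnfaip3 held GGAAATCCCC from 12 to 3 bases and GGGACACCCC from 125 to 116 bases before the start. In Nfkb2 the match GGGGCTTTCC lay 11 to 2 bases before the start, and GGGAATTCCC and GGAATTCCCC overlapped from 39 to 29 bases before it. Rel, whose upstream bases are not shown, held the overlapping pair GGGAAATCCC and GGAAATCCCC from 92 to 82 bases before its start, and Nfkbie held GGGGGATTCC from 106 to 97 bases before its start.

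The table holds 10 windows for 7 of the 10 genes, counting alternative starts of Nfkb2 and Tnfaip3, and 7 of these windows, from 5 genes, held a match in the 250 bases. Among all 32851 windows, 7.25% held one. With a stricter form whose last 4 bases are TTCC, the count was again 7 windows from 5 genes, against 2.46% of all windows. A match is only a run of letters, and no binding was measured.

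With LPS/IFNg, 8 of the 9 measured genes rose against untreated cells and Rela did not pass the test. All 4 IkB genes and Tnfaip3 were among the risers, with fold changes from 5.16 (Nfkbie) to 13.3 (Nfkbiz), and so were 3 of the 4 measured subunit genes, with fold changes of 2.99 for Relb and 6.00 for Nfkb2 and a log2 change of 2.79 for Rel, which was near the detection limit in untreated cells. Of all 8952 genes, 17.5% were called higher and 23.5% lower at an adjusted p below 0.05 in this comparison. The median log2 fold change was 2.57 over the 9 genes and -0.07 over all genes. Every LPS/IFNg array lay above every untreated array for 8 of the 9, as it did for 28.2% of all genes. RNA of whole cultures was measured, so more cells carrying a transcript and more transcript per cell cannot be told apart.

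Among the subunits, Rela encodes p65, the subunit of the most common dimer with a transactivation domain. Its log2 signal was 10.81, 11.04 and 10.93 on the untreated arrays, 10.79, 11.10 and 10.94 with IL-4, 10.91, 11.04 and 10.84 with TGFb, and 11.07 and 10.89 with LPS/IFNg. All 11 arrays fell within this narrow range and the groups overlapped throughout. The LPS/IFNg difference was 0.05 ± 0.16 (log2 fold change ± SE, limma, adjusted p = 0.813), with a 95% interval of 0.813-fold to 1.33-fold.

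Rel encodes c-Rel, a transactivating subunit known best from lymphoid and myeloid cells. Its log2 signal was 4.88, 4.90 and 5.12 in untreated cells, where 1 of 3 arrays was above the detection limit. It stood at 5.61, 5.36 and 5.95 with IL-4, 5.14, 5.04 and 5.50 with TGFb, and 7.41 and 8.10 with LPS/IFNg, where both arrays detected it. The LPS/IFNg arrays were the highest of all, and every IL-4 array lay above every untreated array. Rel rose by 2.79 ± 0.25 with LPS/IFNg (limma, adjusted p = 1.31e-05). Its untreated mean of 4.97 lay below the lowest detected signal of those arrays (5.06 to 5.08), so the size of the rise rests on background: it was 1.36 in the authors' table, where Nfkb2 was larger at 1.82, and 1.16 without background correction, with Rel called in both.

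Nfkb2 encodes p100, which acts as an inhibitor until it is processed to the subunit p52, and Relb encodes the partner of p52 in the non-canonical pathway. The Nfkb2 log2 signal was 7.20, 6.38 and 6.93 in untreated cells, 6.91, 6.33 and 6.30 with IL-4, 6.86, 5.93 and 5.49 with TGFb, and 9.13 and 9.71 with LPS/IFNg. The Relb log2 signal was 8.62, 7.44 and 8.48 in untreated cells, 8.39, 7.95 and 7.69 with IL-4, 8.03, 7.42 and 7.07 with TGFb, and 9.71 and 9.81 with LPS/IFNg. Both genes were highest on both LPS/IFNg arrays, and the 3 other groups overlapped one another. Nfkb2 rose by 2.58 ± 0.39 (adjusted p = 0.000429, 6.00-fold) and Relb by 1.58 ± 0.37 (adjusted p = 0.00653, 2.99-fold) in the limma fit. Within slide 2, where the fit had 1 LPS/IFNg array, the Relb difference was 1.62 and no longer called (adjusted p = 0.0631), while the other 7 risers kept an adjusted p below 0.05.

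**Figure D1:**
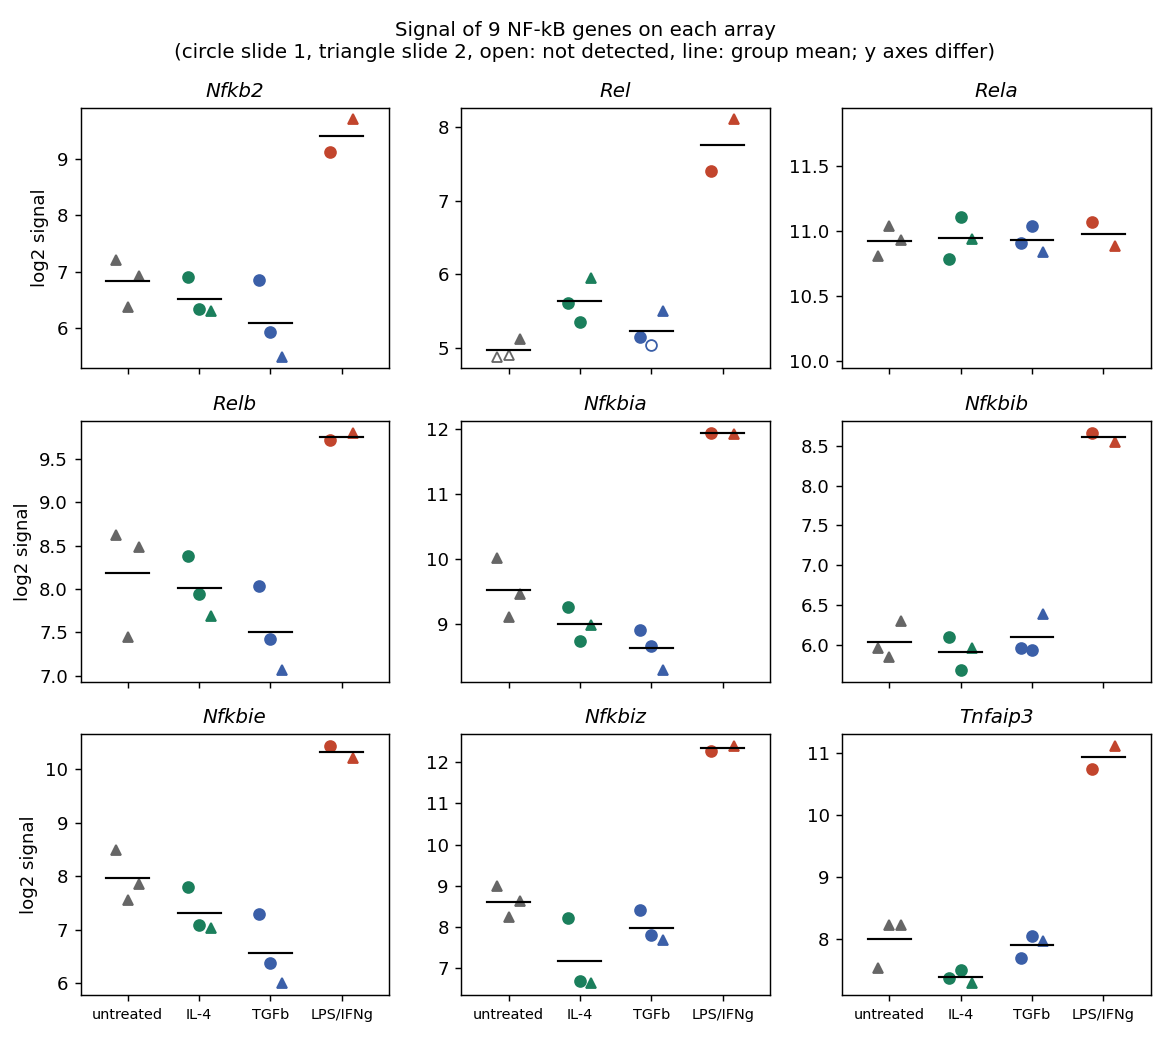
Background-corrected, normalized log2 signal (vertical axes, which differ between panels) of the 9 measured genes on each of the 11 arrays, by group (horizontal axes), with circles for slide 1, triangles for slide 2, open symbols for arrays that did not detect the probe and lines for group means. Both LPS/IFNg arrays lie above all other arrays for 8 genes, and Rela stays between 10.79 and 11.10 on every array.

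Nfkbia encodes IkB-alpha, the inhibitor best known for rapid degradation and resynthesis after stimulation. Its brighter probe gave a log2 signal of 10.01, 9.11 and 9.47 in untreated cells, 9.27, 8.74 and 9.00 with IL-4, 8.92, 8.68 and 8.30 with TGFb, and 11.94 and 11.92 with LPS/IFNg. On this probe the 2 LPS/IFNg arrays differed by 0.03 and the 3 untreated arrays spanned 0.90, as against 0.58 and 0.96 on the dimmer probe. Every TGFb array lay below every untreated array on the brighter probe. Nfkbia rose by 2.40 ± 0.27 with LPS/IFNg (limma, adjusted p = 6.77e-05), a 5.27-fold change with a 95% interval of 3.46 to 8.04.

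Nfkbib encodes IkB-beta, and Nfkbie encodes IkB-epsilon. The Nfkbib log2 signal was 5.97, 5.85 and 6.30 in untreated cells, 6.09, 5.69 and 5.97 with IL-4, 5.96, 5.94 and 6.38 with TGFb, and 8.67 and 8.54 with LPS/IFNg. Its untreated, IL-4 and TGFb arrays overlapped, and its rise with LPS/IFNg was 2.57 ± 0.21 (limma, adjusted p = 6.32e-06, 5.92-fold). Its upstream bases, shown above, hold no kB match. For Nfkbie the brighter probe read 8.49, 7.55 and 7.85 in untreated cells, 7.79, 7.09 and 7.02 with IL-4, 7.30, 6.37 and 6.00 with TGFb, and 10.44 and 10.22 with LPS/IFNg. Nfkbie rose by 2.37 ± 0.39 (limma, adjusted p = 0.000784, 5.16-fold), and its TGFb arrays all lay below its untreated arrays.

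Nfkbiz encodes IkB-zeta, a nuclear IkB protein that acts with NF-kB at a subset of late target genes such as Il6. Its log2 signal was 8.99, 8.23 and 8.61 in untreated cells, 8.21, 6.67 and 6.62 with IL-4, 8.40, 7.79 and 7.68 with TGFb, and 12.29 and 12.41 with LPS/IFNg. The IL-4 arrays were all below the untreated arrays, replicate 1 only just, and the LPS/IFNg arrays were far above all others. The rise with LPS/IFNg was 3.74 ± 0.44 (limma, adjusted p = 8.06e-05), a 13.3-fold change with a 95% interval of 6.78 to 26.2, and it ranked 101 among 8952 genes ordered from the largest rise.

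Tnfaip3 encodes A20, which removes and edits ubiquitin chains on proteins upstream of IKK. Its log2 signal was 7.53, 8.22 and 8.22 in untreated cells, 7.38, 7.51 and 7.29 with IL-4, 7.69, 8.05 and 7.97 with TGFb, and 10.74 and 11.11 with LPS/IFNg. All 3 IL-4 arrays lay below the untreated arrays, replicate 2 only just, while TGFb and untreated arrays overlapped. In the bead signals before normalization, untreated replicate 1 (269.2) lay below the lowest IL-4 array (270.4). Tnfaip3 rose by 2.94 ± 0.23 with LPS/IFNg (limma, adjusted p = 5.78e-06), a 7.65-fold change, with a 95% interval of 2.42 to 3.45 on the log2 scale.

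The further probes of 2 genes were read in a fit over all 15937 passing probes, of which 17.1% were called higher with LPS/IFNg. The other Nfkbia probe stood at 6.76, 6.03 and 6.99 untreated and at 8.48 and 9.06 with LPS/IFNg, a rise of 2.17 ± 0.33 (limma, adjusted p = 0.000455). The other Nfkbie probe stood at 5.02, 4.63 and 5.10 untreated, where 1 of 3 arrays detected it, and at 7.09 and 6.22 with LPS/IFNg, a rise of 1.74 ± 0.25 (limma, adjusted p = 0.000311). With IL-4 and TGFb the other Nfkbia probe ran from 5.88 to 6.08 and from 5.49 to 6.43, and the other Nfkbie probe from 4.94 to 5.18 and from 4.55 to 4.62. Both probes of each gene rose with LPS/IFNg, so all 10 probes of the 8 called genes were called higher.

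**Figure D2:**
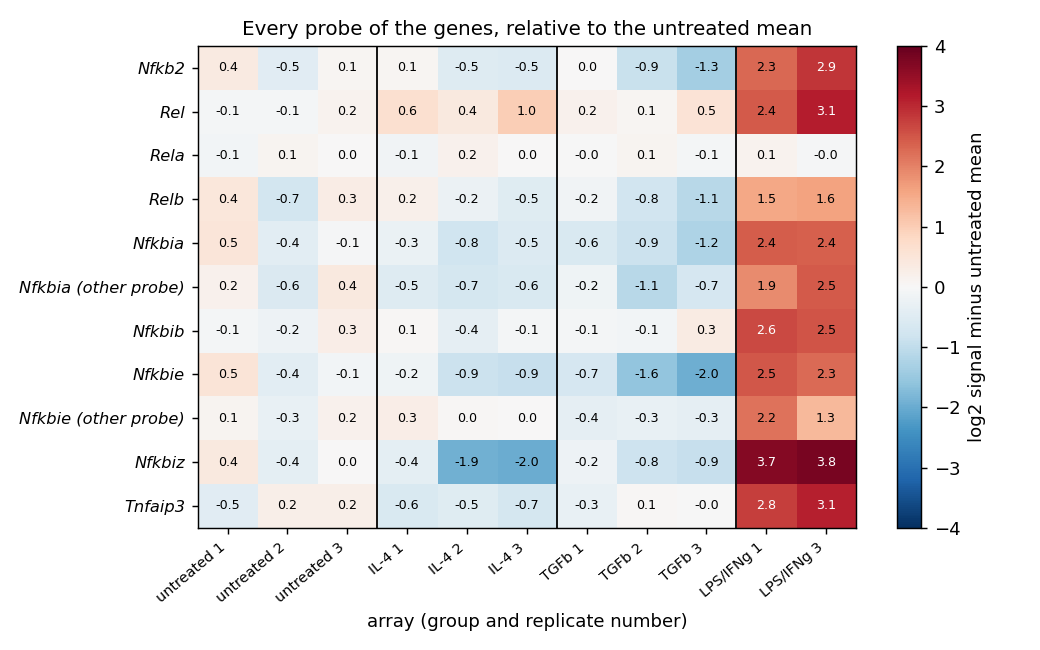
Log2 signal minus the mean of the 3 untreated arrays for all 11 probes (rows) on the 11 arrays (columns, by group and replicate number), with red for higher and blue for lower values on a scale from -4 to 4. The LPS/IFNg columns are red for every probe except that of Rela, and both probes of Nfkbia and of Nfkbie are red there.

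With IL-4, a cytokine of alternative macrophage activation, no member passed the test, as against 1.28% of all genes called in either direction. The test did not pair arrays by replicate number. At an unadjusted limma p below 0.05, where 1264 of all 8952 genes stood, there were 3 members: Nfkbiz, Tnfaip3 and Rel. These were also the 3 of 9 whose IL-4 and untreated arrays did not overlap, a state that 18.5% of all genes shared. The log2 difference was -1.44 ± 0.39 for Nfkbiz (limma, adjusted p = 0.114), -0.60 ± 0.21 for Tnfaip3 (adjusted p = 0.215) and 0.67 ± 0.22 for Rel (adjusted p = 0.198). The 4 IkB genes and Tnfaip3 all had values below 0, with -0.66 for Nfkbie (adjusted p = 0.446), -0.53 for Nfkbia (adjusted p = 0.368) and -0.12 for Nfkbib (adjusted p = 0.827) as the others. On the dimmer probes the difference was -0.61 for Nfkbia (adjusted p = 0.439) and 0.11 for Nfkbie (adjusted p = 0.903) in the fit over every probe. Of the other subunits Nfkb2 stood at -0.32 (adjusted p = 0.748), Relb at -0.17 (adjusted p = 0.873) and Rela at 0.02 (adjusted p = 0.972).

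Nfkbiz was the member whose IL-4 result turned on 1 array. Without IL-4 replicate 1, the array with fibroblast marker signal, its difference was -1.96 with an adjusted p of 0.00877 in limma. Nfkbiz was then the 1 member called, as against 117 of all 8952 genes. With replicate number as a block its adjusted p was 0.0415 in the fit over all arrays and 0.0743 in the fit over the untreated and IL-4 arrays alone, and within slide 2 the difference was -1.99 (adjusted p = 0.323). Without that array Nfkb2 stood at -0.52 (adjusted p = 0.566), Relb at -0.36 (adjusted p = 0.701), Rela at 0.09 (adjusted p = 0.824) and Nfkbib at -0.21 (adjusted p = 0.679). Tnfaip3 stood at -0.59 (adjusted p = 0.278), Rel at 0.69 (adjusted p = 0.236), Nfkbie at -0.90 (adjusted p = 0.283) and Nfkbia at -0.67 (adjusted p = 0.274).

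With TGFb, a cytokine that restrains macrophage activation, no member passed the test either, as against 0.983% of all genes called. At an unadjusted limma p below 0.05, where 987 of all 8952 genes stood, there were 2 members, Nfkbie and Nfkbia. These were the 2 of 9 whose arrays did not overlap with the untreated ones, as for 17.7% of all genes. The difference was -1.40 ± 0.35 for Nfkbie (limma, adjusted p = 0.110) and -0.90 ± 0.25 for Nfkbia (adjusted p = 0.135). On their dimmer probes, in the fit over every probe, the values were -0.34 for Nfkbie (adjusted p = 0.727), which no TGFb array detected, and -0.65 for Nfkbia (adjusted p = 0.521). The block on replicate number gave an adjusted p of 0.0167 for Nfkbie, and leaving out TGFb replicate 1 gave -1.77 with an adjusted p of 0.0472. Nfkb2 at -0.74 (adjusted p = 0.484), Relb at -0.68 (adjusted p = 0.512) and Nfkbiz at -0.65 (adjusted p = 0.613) were also below 0, while Rel at 0.26, Nfkbib at 0.06, Rela at 0.00 and Tnfaip3 at -0.09 had adjusted p-values from 0.774 to 1.

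**Figure D3:**
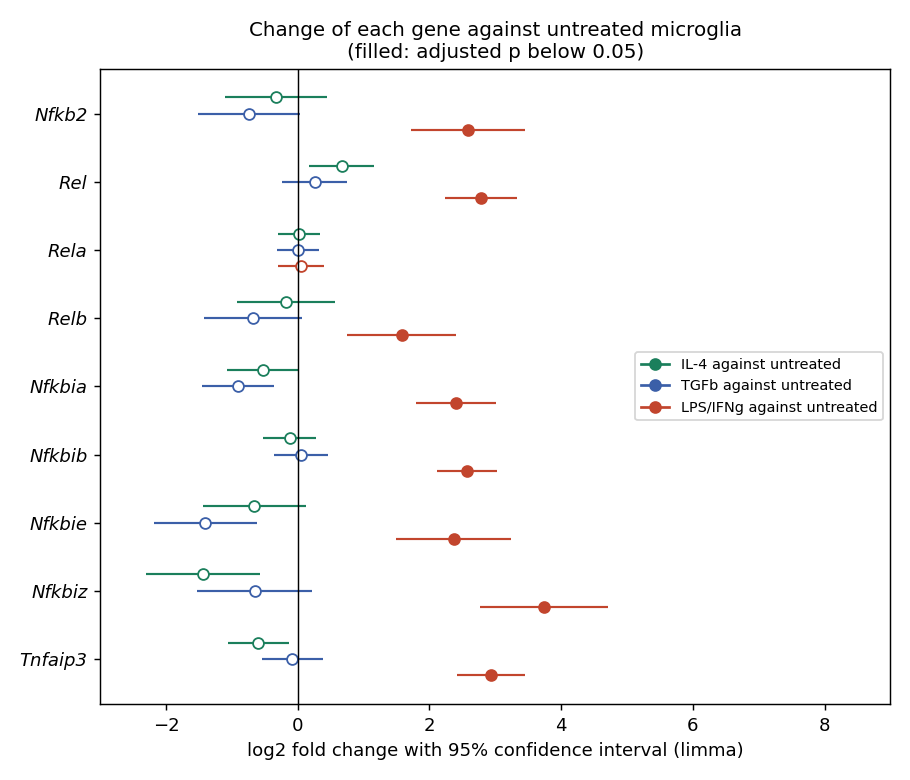
Log2 fold change against untreated cells (horizontal axis) with its 95% confidence interval for each of the 9 measured genes (vertical axis), with 1 colour per stimulus and filled points at an adjusted p below 0.05. The 8 filled points all belong to LPS/IFNg and run from 1.58 (Relb) to 3.74 (Nfkbiz), and the 3 comparisons share the untreated arrays.

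Set against the other stimuli, which share their LPS/IFNg arrays with the comparison above, the same test called 8 of 9 members higher with LPS/IFNg than with IL-4, where 16.4% of all genes were higher. It called 8 of 9 higher than with TGFb, where 17.8% of all genes were higher. LPS/IFNg was given for 16 h and IL-4 and TGFb for 48 h, so stimulus and exposure time cannot be told apart. Rela was again the exception, at 0.04 (adjusted p = 0.874) and 0.05 (adjusted p = 0.818). Nfkbiz differed by 5.18 ± 0.44 from IL-4 (limma, adjusted p = 1.07e-05) and by 4.39 from TGFb (adjusted p = 2.29e-05). Nfkbie, the member lowest with TGFb relative to untreated cells, differed by 3.77 from TGFb (adjusted p = 3.05e-05) and by 3.03 from IL-4 (adjusted p = 0.000171). The other 6 called members differed from IL-4 by 1.75 (Relb) to 3.54 (Tnfaip3) and from TGFb by 2.26 (Relb) to 3.33 (Nfkb2). Without IL-4 replicate 1 the 8 members were again called higher with LPS/IFNg than with IL-4, as were 1501 of all 8952 genes. Nfkbiz then differed by 5.70 (limma, adjusted p = 5.62e-07) and the others by 1.94 (Relb) to 3.53 (Tnfaip3). Rela stood at -0.04 (adjusted p = 0.864).

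Between IL-4 and TGFb no member was called, as against 8.58% of all genes. At an unadjusted limma p below 0.05, where 1976 of all 8952 genes stood, there was 1 member, Tnfaip3. Its groups were the 1 of 9 that did not overlap (27.3% of all genes), with a difference of -0.52 (adjusted p = 0.175). The largest values were -0.79 for Nfkbiz (adjusted p = 0.282) and 0.74 for Nfkbie (adjusted p = 0.252), in opposite directions. Without IL-4 replicate 1 Nfkbiz stood at -1.31 with a limma adjusted p of 0.0152, in a fit that called 694 of all 8952 genes. The other 8 members ran from -0.51 (Tnfaip3) to 0.50 (Nfkbie), none called.

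The order of the group means was LPS/IFNg, untreated, IL-4, TGFb for Nfkb2, Relb, Nfkbia and Nfkbie. For Nfkbiz and Tnfaip3 it was LPS/IFNg, untreated, TGFb, IL-4, for Rel LPS/IFNg, IL-4, TGFb, untreated, and for Nfkbib LPS/IFNg, TGFb, untreated, IL-4. Only the step down from LPS/IFNg passed the test for these 8 genes, and the neighbours below it did not differ at the threshold. The spread within groups was uneven among members: the SD of untreated arrays ran from 0.11 log2 units for Rela to 0.65 for Relb. Replicate 1 was the highest array in all 3 groups of 3 arrays for 5 of the 9 members, Nfkb2, Relb, Nfkbia, Nfkbie and Nfkbiz. The share of all genes with this order was not counted. Over all genes the replicate 1 arrays of these groups deviated together, with correlations of 0.263 to 0.485.

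The members' own circuit was read next to lists of other pathway genes. In the LPS/IFNg comparison used for these lists, 17.5% of all genes were called higher and 23.5% lower. Of 9 tested genes for further IkB-like and nuclear regulators, 3 rose with LPS/IFNg and 1 fell, with a median log2 fold change of -0.01. Bcl3, a nuclear IkB protein that partners p50 and p52, rose by 1.80 (limma, adjusted p = 0.0192), Nkiras2, a small GTPase that binds IkB proteins, by 1.59 (adjusted p = 0.000404) and Nfkbid, a nuclear IkB protein, by 1.12 (adjusted p = 0.00332). Nkrf, a repressor of NF-kB target promoters, fell by 0.77 on the log2 scale (adjusted p = 0.0255). The other 5 of these 9 were not called, and Nkrf was not called with slide as a block.

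Among 11 tested genes of the IKK complex and its upstream kinases, 3 rose and 1 fell (17.5% and 23.5% of all genes), with a median of 0.08. Ikbke, an IKK-related kinase, rose by 2.40 (limma, adjusted p = 0.000236), Map3k8, which binds the p105 precursor, by 1.55 (adjusted p = 0.0224) and Tbk1, another IKK-related kinase, by 0.67 (adjusted p = 0.0236). Tab1, a partner of the kinase TAK1, fell by 0.57 (adjusted p = 0.0232). The core subunits Ikbkb and Ikbkg were among those not called, and the count of risers was 1 without untreated replicate 3 or without either LPS/IFNg array.

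Of 19 tested genes for ubiquitin editing, TRAF and linear ubiquitin proteins, the group to which A20 belongs, 10 rose and 1 fell (median 0.59). Traf1, a TRAF adaptor, rose by 6.85 (limma, adjusted p = 1.11e-05) and was detected on 1 of 3 untreated arrays. Zc3h12a, an RNase that degrades inflammatory transcripts, rose by 3.14 (adjusted p = 9.64e-05) and Rnf31, the catalytic part of the linear ubiquitin ligase, by 2.08 (adjusted p = 9.25e-06). Rnf11, a partner of A20, fell by 0.57 (adjusted p = 0.0205), in the direction opposite to Tnfaip3, and was not called with median scaling.

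Of 22 tested receptors and adaptors that feed into the pathway, 11 rose and 4 fell (median 0.89), against 17.5% and 23.5% of all genes. Cd40, a TNF receptor family member, rose by 7.43 (limma, adjusted p = 3.80e-05), Irak3, an inhibitory kinase of toll-like receptor signalling, by 2.53 (adjusted p = 3.88e-06) and Tlr1 by 2.31 (adjusted p = 6.90e-05). Tlr2, which senses bacterial lipoproteins, fell by 2.49 (adjusted p = 0.00168), Tlr4, the LPS receptor, by 1.24 (adjusted p = 0.00116) and Tlr7, a sensor of RNA, by 0.97 (adjusted p = 0.00622).

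Known target genes of NF-kB and, as a separate list, genes of the IFNg response made up the last lists. Of 16 tested cytokine and chemokine targets 14 rose and 0 fell (median 3.00), among them Cxcl10, a chemokine, by 7.83 (limma, adjusted p = 3.23e-06), Tnf by 5.78 (adjusted p = 4.39e-07) and Ccl7, a chemokine, by 5.60 (adjusted p = 0.00511). Of 20 tested enzyme, survival and adhesion targets 16 rose and 0 fell (median 2.32), among them Lcn2, an iron-sequestering protein, by 7.33 (adjusted p = 8.69e-06) and Ptges, a prostaglandin E synthase, by 5.38 (adjusted p = 3.22e-06). Vcam1, an adhesion molecule detected on no untreated array, was at least 46.4-fold higher (adjusted p = 1.28e-06). Of 10 tested genes of the IFNg response, 9 rose and 0 fell (median 3.46), with Cxcl9, a chemokine, at 9.99 (adjusted p = 3.47e-07) and Gbp2, a guanylate-binding protein, at 6.76 (adjusted p = 0.000352). On the untreated arrays Lcn2 and Cxcl9 were detected on 1 of 3, and Ccl7 and Ptges on 2 of 3. Irf1 and Cxcl10 stand in 2 of these lists, LPS and IFNg were given together, and their separate parts in the members' rise cannot be told apart. Setting the genes detected on no untreated array at their lower bound left each of these medians as it was.

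**Figure D4:**
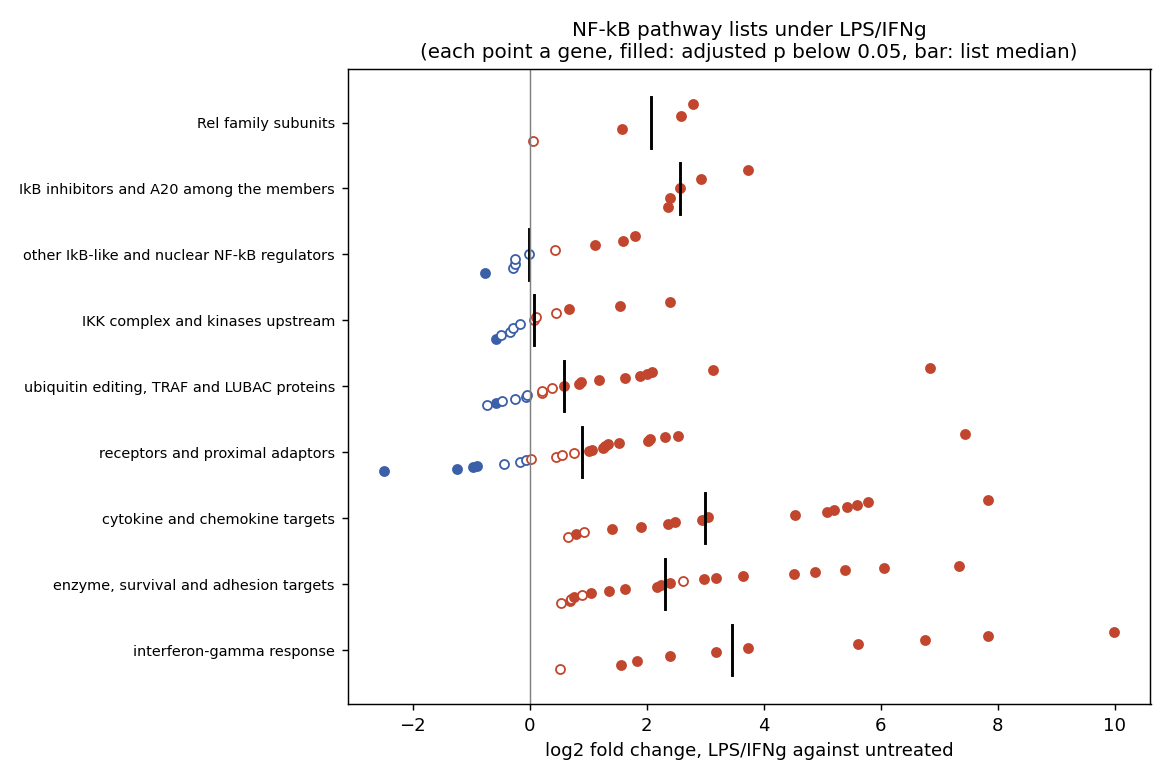
Log2 fold change of LPS/IFNg against untreated cells (horizontal axis) for each tested gene of 9 lists (vertical axis), with filled points at an adjusted p below 0.05, red above 0 and blue below 0, and bars for list medians. The lists of members, of targets and of the IFNg response lie to the right, with medians from 2.08 to 3.46. The regulators and kinases outside the members centre near 0, with medians of -0.01 and 0.08. Genes detected on no untreated array are drawn at their fitted value.

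With IL-4, 3 receptors and adaptors were called lower and no gene of the kinase, ubiquitin or regulator lists was called. Tlr2 fell by 2.34 (limma, adjusted p = 0.0295), Cd14, the LPS co-receptor, by 2.03 (adjusted p = 0.0233) and Irak3 by 1.09 (adjusted p = 0.0163). Tnf, a target gene of the pathway, fell by 1.42 (adjusted p = 0.0416). The receptor count was 0 without untreated replicate 1 or 3, 1 without IL-4 replicate 3, 3 without IL-4 replicate 1 and 1 with slide as a block, and 1 cytokine target was called lower without IL-4 replicate 1. Tnf was not called with slide as a block. With TGFb no gene of any of these lists was called, and leaving out 1 array in turn called up to 2 of a list.

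The genes whose pattern over the 11 arrays lay nearest to 3 members were found by the root mean square difference of log2 signals, each gene centred on its untreated mean. Nearest to Nfkbiz were Sema4a, a semaphorin, at 0.361, Icam1, an adhesion molecule, at 0.573 and Itgal, an integrin chain, at 0.637, where the median gene stood at 1.92. Nearest to Tnfaip3 were Kif3c, a kinesin, at 0.195, Tspan3, a tetraspanin, at 0.263 and Xkr8, a phospholipid scramblase, at 0.310 (median gene 1.39). Nearest to Rel were Hs3st3a1, a heparan sulfate sulfotransferase, at 0.318, Ptpn2, a tyrosine phosphatase, at 0.352 and Rbl1, an RB family protein, at 0.357 (median gene 1.34). Sema4a shared with Nfkbiz a value below 0 with IL-4 (-1.22) and a rise with LPS/IFNg (3.78), and these likenesses are descriptions over 11 arrays, in which 2 LPS/IFNg arrays weigh heavily.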

How the data were processed

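Biotin-labelled cRNA of 11 samples was read on Illumina mouse arrays. Per the file headers the deposited scanner table gives an intensity (mean bead signal, linear, not normalized) and a detection p-value for 45281 probes per array. The table of processed values from the authors is in log2 units, which matched quantile-normalized log2 signals with 1 shift per probe and slide to within 0.00790, and served as an alternative. Partek is named in the submitters' processing notes, with no further step recorded there.

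The neqc function (limma 3.58.1, R 4.3.3) applied normexp with an offset of 16, using negative controls inferred from detection p-values, then quantile normalization and log2. Probes detected (p below 0.01) on at least 2 arrays were kept (15937, of which 13765 had 1 gene), and each gene took its probe with the highest mean, leaving 8952 genes. Of all probes 34885 had 1 symbol, 18 several and 10378 none. Of the 34885, 34807 were matched to RefSeq by gene identifier and took its symbol, whether or not it differed.

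One mean per group was fitted with lmFit and eBayes to all 11 arrays (7 residual degrees of freedom), and 6 contrasts were adjusted over all genes by Benjamini-Hochberg at 0.05. A gene that no array of the lower group detected was given a lower bound, "at least N-fold", from the lowest detected signal. The script was tested on simulated data. The members and gene lists were chosen with earlier results of these data known. All members were named. Of each other list the text names the 3 largest called rises and falls whose groups did not overlap for LPS/IFNg, and up to 3 called genes in each direction for IL-4 and TGFb. The nearest patterns were taken for the 3 members with the largest change. Ikbkb, Ikbkg and Irf1 were named after their values were seen.

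Same-numbered IL-4 and untreated arrays deviated together over all genes (correlations of 0.401, 0.444 and 0.261), so a block on replicate number was fitted as an alternative. The main fit holds no such block. Same-numbered TGFb and untreated arrays did not deviate together in every pair (0.485, 0.111 and -0.0992). Between groups, correlations ran from -0.156 to 0.485 for same-numbered pairs and from -0.478 to 0.418 for the other pairs. Alternatives were other normalizations, the authors' table, other detection limits, every probe, slide and replicate blocks, single slides, array weights, robust eBayes, each array left out in turn, and fits of only the groups compared. The number of arrays limits the precision.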

Additional observations from a re-analysis of the deposited data

How the results depend on the processing

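The 8 rises with LPS/IFNg against untreated cells were called under all 27 alternatives except Relb within slide 2. Against IL-4, Relb lost its call within slide 1 (1.55, adjusted p = 0.0738) and within slide 2 (2.11, adjusted p = 0.0672), and against TGFb all 8 held under 28 alternatives. The authors' table gave smaller rises with LPS/IFNg against untreated cells for all 8 called members, such as 1.36 for Rel and 1.56 for Nfkbib, and without background correction these 2 stood at 1.16 and 1.45. The IL-4 count of called members, 0, became 2 with the authors' table (Nfkbiz at -1.13 and Rel at 0.34, both with an adjusted p of 0.0387), 1 with the replicate block, 1 with array weights (Nfkbiz, -1.93, adjusted p = 0.00453) and 0 to 1 on leaving out 1 array. The TGFb count, 0, became 2 with the authors' table (Nfkbie at -1.01, adjusted p = 0.0207, and Nfkbia at -0.86, adjusted p = 0.0456), 1 with the replicate block, 2 with array weights (Nfkbie at -1.54, adjusted p = 0.0247, and Nfkbia at -0.97, adjusted p = 0.0380) and 0 to 1 on leaving out 1 array. The count between IL-4 and TGFb, 0, became 1 with the replicate block (Nfkbie, 0.74, adjusted p = 0.0497), 2 with array weights (Nfkbiz at -1.15, adjusted p = 0.0118, and Tnfaip3 at -0.60, adjusted p = 0.0476) and 0 to 1 on leaving out 1 array. Over all genes, IL-4 calls moved from 115 to 405 with the authors' table, 184 with the replicate block and 477 with array weights. In the same order, TGFb calls moved from 88 to 289, 148 and 289. Calls between IL-4 and TGFb moved from 768 to 1053, 927 and 1483. The replicate block changed no other call of a member, and the cause of these changes was not tested.

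Median scaling moved the median of all genes with LPS/IFNg against untreated cells from -0.07 to -0.25 and its calls from 1568 higher and 2106 lower to 1012 and 2323, with the same 8 members called. The calls with IL-4 moved from 77 higher and 38 lower to 63 and 15, and those with TGFb from 55 and 33 to 24 and 42. Over all genes the calls ran from 2270 (slide 2 only) to 5822 (every probe) with LPS/IFNg against untreated cells (3674 as reported), from 3 (slide 2 only) to 477 (array weights) with IL-4 (115) and from 0 (slide 2 only, with 740 at an unadjusted p below 0.05 in limma) to 289 (authors' table) with TGFb (88). They ran from 834 (slide 1 only) to 5579 for LPS/IFNg against IL-4 (3577), from 1276 (slide 1 only) to 6103 for LPS/IFNg against TGFb (3756) and from 3 (slide 2 only) to 1483 (array weights) between IL-4 and TGFb (768). Low signal limits Rel and the dimmer Nfkbie probe, which were detected on 6 and 2 of the 9 arrays without LPS/IFNg.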
